A study of Arabidopsis thaliana with 31 samples.

Results

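The photolesion map of UV-C-exposed wild-type (WT) *Arabidopsis thaliana* consisted of 3585 regions, which were all regions of the deposited WT list and came from 7269 regions listed for 5 genotypes. Each region was given as coordinates and a fold enrichment, the ratio of immunoprecipitated (IP) DNA over the input DNA of WT plants. The WT plants were Col 0, grown in vitro for 18 days according to the labels (the methods describe a longer culture), and received 3000 J/m2 of UV-C. Leaf DNA was taken at time point 0, which the methods place immediately upon exposure, and leaves of biological replicates were pooled. Photolesions were pulled down by IPOUD (immunoprecipitation of UV-damaged DNA) with an antibody against cyclobutane pyrimidine dimers (CPD) in 1 library and against 6,4 photoproducts (6,4 PP) in another, and 1 input library was shared by both. The list joins the regions of both antibodies and does not say which antibody gave a region. No IP from unirradiated leaves was used here, and no library was replicated, so no region has a replicate check. The 95% intervals below are exact (Clopper-Pearson) for shares, from order statistics for medians and from the Poisson distribution for densities, and cover counting error only. The list holds no reads, so the depth behind a single region is unknown. The paper's sequencing statistics report a far smaller mapped share of reads in both WT IP libraries than in the input.

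UV-C is absorbed by DNA bases and joins neighbouring pyrimidines of the same strand, as CPDs or as 6,4 PPs, so that TT, TC, CT and CC are the sites where these lesions can form. Plants remove them by light-dependent photolyases and by nucleotide excision repair, in which DDB2 recognizes lesions across the genome. Photolyases reverse the joining of the bases, while excision repair cuts out and replaces a stretch of the damaged strand.

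The regions covered 0.794% of the 5 chromosomes. Their median length was 230 bp (227 to 233), 880 regions had the shortest length of 192 bp and the longest had 2444 bp. The fold enrichment had a median of 4.59 (4.55 to 4.66) and ranged from 2.35 to 14.8. It reached 5 in 1264 regions (35.3%) and 10 in 25 regions. Longer regions tended to be more enriched (Spearman's rho = 0.37 over 3585 regions, a description, since the peak caller sets length and enrichment from the same reads).

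The sequences of some of the most enriched regions are given first, as examples of base compositions that recur in the map. Each is the central window of 192 bp of a region, 5′ to 3′ on the strand richer in pyrimidines, from the TAIR10.1 reference. In the first set the capitals mark runs of at least 6 pyrimidines, and the windows printed are rich in them. Not all highly enriched regions were. The window of PI-4KBETA2 (10.5), which is not printed, had 58.3% pyrimidines on the richer strand and a longest run of 8. The most enriched region of the map, in AT2TE22075, had only 54.2% pyrimidines on the richer strand of its window. AT4TE19110 is a TE of the family ATDNAI27T9A (fold enrichment 14.3, chr4:4547870-4548061, minus strand). AT3TE21460 is a VANDAL17 element within AT3G15120 (12.4, chr3:5094545-5094736, plus strand). AT3G28770 was read from its coding sequence (10.7, chr3:10799223-10799414, minus strand, the template strand of the gene). The intergenic window came from a region with a fold enrichment of 14.3 (chr3:17901307-17901498, plus strand).
AT4TE19110: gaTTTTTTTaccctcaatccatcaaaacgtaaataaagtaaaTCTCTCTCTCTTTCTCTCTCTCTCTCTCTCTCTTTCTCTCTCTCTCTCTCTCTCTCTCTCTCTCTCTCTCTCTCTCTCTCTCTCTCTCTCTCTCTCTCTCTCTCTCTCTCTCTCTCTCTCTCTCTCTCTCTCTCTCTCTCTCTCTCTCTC
AT3TE21460: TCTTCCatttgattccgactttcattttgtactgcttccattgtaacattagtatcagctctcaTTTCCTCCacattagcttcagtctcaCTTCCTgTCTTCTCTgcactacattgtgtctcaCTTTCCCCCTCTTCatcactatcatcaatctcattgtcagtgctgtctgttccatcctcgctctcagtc
AT3G28770: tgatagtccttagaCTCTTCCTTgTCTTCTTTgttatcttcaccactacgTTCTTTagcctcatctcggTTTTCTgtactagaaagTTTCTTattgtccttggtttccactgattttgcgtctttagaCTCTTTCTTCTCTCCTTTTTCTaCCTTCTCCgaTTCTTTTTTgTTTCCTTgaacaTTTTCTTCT
intergenic: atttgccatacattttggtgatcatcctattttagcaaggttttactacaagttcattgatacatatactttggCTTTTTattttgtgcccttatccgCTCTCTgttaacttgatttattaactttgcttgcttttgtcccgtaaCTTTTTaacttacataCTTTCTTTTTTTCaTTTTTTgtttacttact

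A second pair shows simple repeats. In AT1TE50365, a TE of the family ATREP18 (fold enrichment 12.5, chr1:15297914-15298105, plus strand), the capitals mark the 8 exact copies of CCCTAAA, the unit of plant telomeres. In an intron of AT3G23460, annotated as a methyltransferase superfamily gene (14.4, chr3:8414033-8414224, plus strand), they mark a CA repeat of 51 bases.
AT1TE50365: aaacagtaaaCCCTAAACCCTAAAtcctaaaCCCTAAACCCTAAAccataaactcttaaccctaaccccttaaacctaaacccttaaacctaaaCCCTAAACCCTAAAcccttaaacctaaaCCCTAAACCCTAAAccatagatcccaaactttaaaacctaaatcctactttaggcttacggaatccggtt
AT3G23460: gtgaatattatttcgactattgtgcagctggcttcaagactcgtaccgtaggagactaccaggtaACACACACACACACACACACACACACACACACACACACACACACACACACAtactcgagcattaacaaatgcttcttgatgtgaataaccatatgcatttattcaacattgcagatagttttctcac

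Protein-coding genes (PCG) held more of the map than their share of the genome. By the midpoint of the region, with transposable elements (TE) taken before PCG, 2067 regions lay in PCG (57.7%, 56.0 to 59.3, against 49.3% of the genome), 622 in TE (17.4%, 16.1 to 18.6, against 20.6%) and 896 in intergenic sequence (24.99%, 23.6 to 26.4, against 30.1%). The densities were 35.2, 25.3 and 25.002 regions per Mb. The order was different for enrichment. The median fold enrichment was 4.74 (4.72 to 4.90) in TE, 4.57 (4.52 to 4.68) in intergenic sequence and 4.54 (4.52 to 4.58) in PCG, and 12 of the 25 regions with a fold enrichment of at least 10 were in TE. Among regions with a fold enrichment of at least 5, TE were above their genome share by a ratio of 1.06, while over all regions the ratio was 0.842.

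The 5 chromosomes had similar densities, between 28.7 regions per Mb on chromosome 3 and 31.6 on chromosome 4, with overlapping intervals. The pericentromere was taken as the stretch of each chromosome with the fewest genes, and held 720 regions (20.1%, 18.8 to 21.4, against 17.8% of the genome), or 34.0 per Mb (31.5 to 36.5) against 29.3 (28.2 to 30.3) in the arms. The difference was seen on chromosomes 1 and 4, where the density in the pericentromere was 1.42 and 1.45 times that of the arm, while on chromosomes 2, 3 and 5 the ratio was 1.01, 1.03 and 1.03. Within each class the pericentromere was denser than the arms, with 44.4 against 34.8 regions per Mb in PCG, 29.9 against 19.4 in TE and 40.6 against 22.5 in intergenic sequence. Without the ATREP18 regions described below, the pericentromeric share was 1.03 times its genome share, against 1.13 with them, and it was 0.987 times when neighbouring regions were joined over gaps of up to 1000 bp. Within 1 Mb of the lowest gene coverage 10.8% of the regions had a fold enrichment of at least 7, and beyond 13 Mb 3.15% did.

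**Figure D1:**
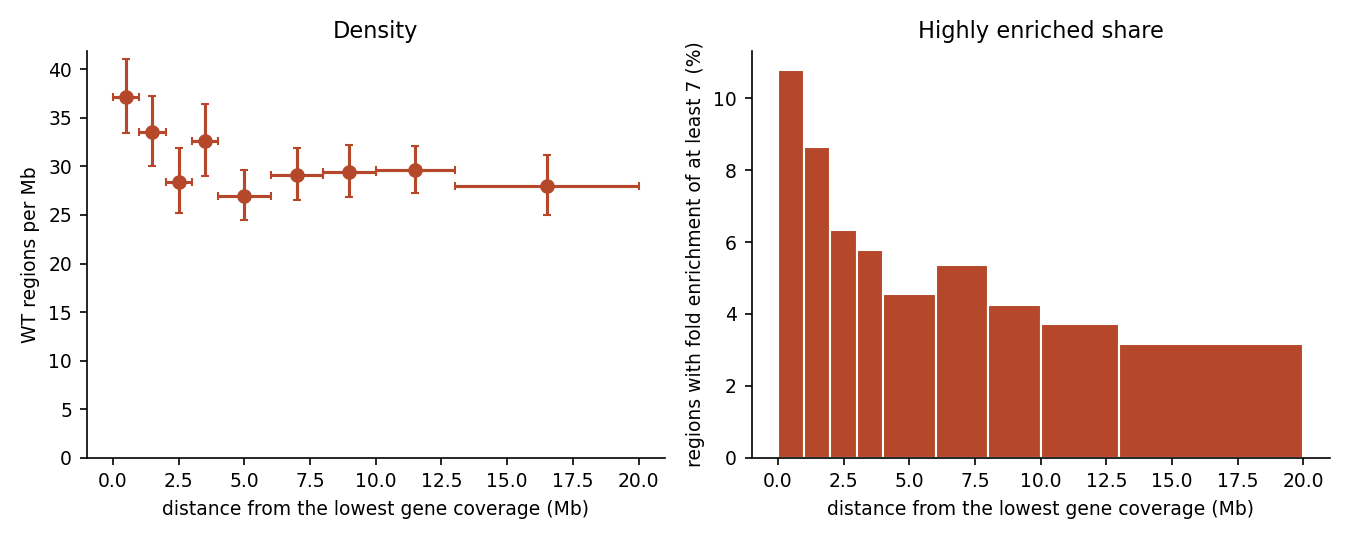
WT regions by distance (Mb) from the point of lowest gene coverage of each chromosome. Left, regions per Mb with 95% Poisson intervals (vertical) over the width of each bin (horizontal); right, the share of regions in the bin with a fold enrichment of at least 7, which was 10.8% within 1 Mb and 3.15% beyond 13 Mb.

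Within genes the regions were concentrated towards the start. Of 2054 regions placed on a RefSeq gene model, 402 (19.6%, 17.9 to 21.4) were in the second of 10 equal parts of the gene body and 305 (14.8%) in the third, while the seventh held 109 (5.31%, 4.38 to 6.37), against 10% for an even spread. The 5′ UTR had 89.7 regions per Mb (79.1 to 101.3), the 3′ UTR 43.3 (37.3 to 50.01), introns 38.7 (35.9 to 41.7) and coding sequence 27.4 (25.7 to 29.3). The 5′ UTR held 12.5% of the genic regions, and 7.29% of those lying wholly inside 1 gene. Coding sequence thus held 900 genic regions, 43.5% of them, against 55.9% of genic bases. The median fold enrichment differed little between these features, from 4.51 in coding sequence to 4.58 in the 3′ UTR, with overlapping intervals. In intergenic sequence the density was 31.2 regions per Mb further than 1 kb from a gene, 20.5 within 1 kb of a gene start and 21.03 within 1 kb of a gene end.

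**Figure D2:**
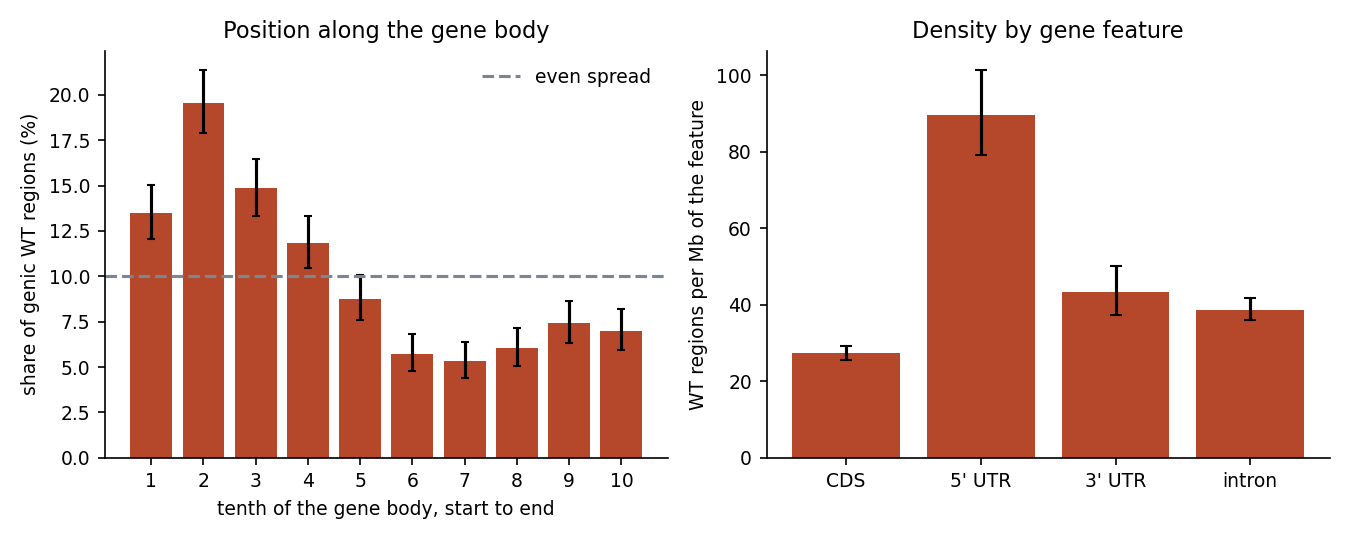
Left, the share (%) of 2054 genic WT regions in each of 10 equal parts of the gene body from start to end, with 95% exact intervals and the even share of 10% as a dashed line; right, WT regions per Mb of each gene feature with 95% Poisson intervals. The second part and the 5′ UTR stand highest, at 19.6% and 89.7 regions per Mb.

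Many of the regions had an unequal number of pyrimidines on the 2 strands. The strand difference was taken as the pyrimidine minus the purine share of the central 192 bp, without its sign, so that 0.2 means 60% pyrimidines on the richer strand. Its median was 0.22 in the regions (0.21 to 0.23) and 0.08 in 619460 genome tiles of the same length. It reached 0.2 in 1918 regions (53.5%, 51.9 to 55.1), while the share among the tiles was 11%. A difference of at least 0.4 was found in 452 regions (12.6%) and in 0.489% of the tiles. The share at 0.2 or more was 50.7% in PCG, 56.8% in TE and 57.7% in intergenic regions, against 11.97%, 11.4% and 9.18% of the tiles of these classes. It was 44.3% (40.6 to 48.0) in the pericentromere and 55.8% (54.0 to 57.6) in the arms. Over 4 groups of similar size by fold enrichment it was 45.04% (41.8 to 48.3) in the lowest group, 53.2% and 56.6% in the next ones and 59.3% (56.0 to 62.6) in the highest. At the very top it was lower, with 19 of the 40 most enriched regions and 56 of the 100 most enriched. The GC content was close to that of the genome, with a median of 35.4% against 36.5%.

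**Figure D3:**
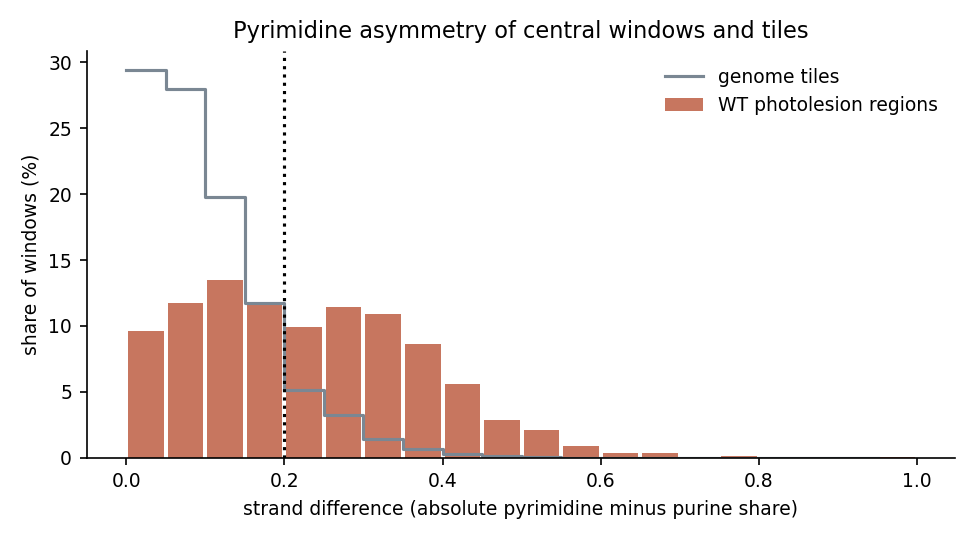
Distribution of the strand difference (0 means equal pyrimidines on both strands) of the central 192 bp of the 3585 WT regions (bars) and of 619460 genome tiles (grey line), as the share of windows (%). To the right of the dotted line at 0.2 lie 53.5% of the regions and 11% of the tiles.

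Summed over both strands, the 4 di-pyrimidines were only slightly more frequent than in the genome, with a median of 28.6% of dinucleotides (28.5 to 28.7) against 27.2%. On the richer strand they made up 39.3% (38.7 to 39.8) against 31.4% in tiles, and on the other strand 17.3% (16.8 to 17.3) against 22.5%. TT on the richer strand had a median of 16.8% against 13.1%, TC 8.90% against 7.33% and CT 8.90% against 6.81%, while CC had the same median of 3.66% in both. In TE regions CC was also higher, at 5.24% against 3.66%. The longest unbroken run of pyrimidines on either strand had a median of 11 bases against 9 in tiles, and reached 24 bases in 5.61% of the regions (4.88 to 6.41) against 1.04% of the tiles.

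In genes, the strand that was pyrimidine-rich depended on the feature. Of the coding-sequence regions with a strand difference of at least 0.2, the template strand was the richer one in 346 of 484 (71.5%, 67.2 to 75.5), against 62.4% of such tiles. In introns it was the coding strand in 272 of 288 and in the 5′ UTR in 159 of 174. The tiles leaned the same way in each feature, with a pyrimidine-rich template strand in 9.39% of the strand-biased intron tiles and 12.6% of those in the 5′ UTR. Relative to all tiles of the feature, strand-biased windows of both directions were more frequent in the regions. A pyrimidine-rich template strand was 5.02 times as frequent in coding sequence, 4.40 in the 3′ UTR, 2.75 in introns and 1.70 in the 5′ UTR. A pyrimidine-rich coding strand was 3.32 times as frequent in coding sequence, 3.86 in the 3′ UTR, 4.84 in introns and 2.58 in the 5′ UTR.

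**Figure D4:**
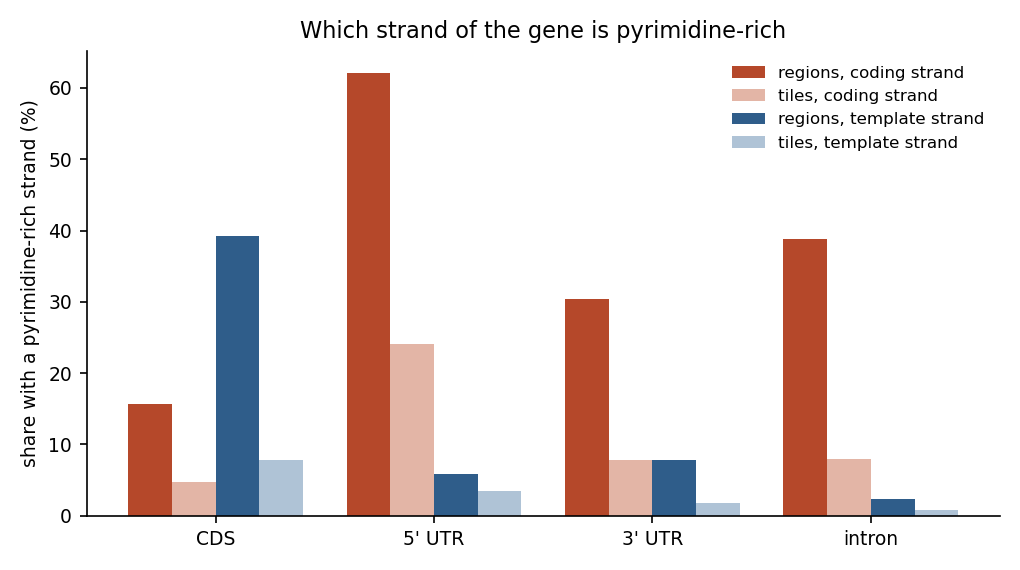
Share (%) of WT regions and of genome tiles in each gene feature whose coding strand (red) or template strand (blue) is pyrimidine-rich by at least 0.2. Regions (dark bars) exceed tiles (pale bars) in each of the 4 features, and the template strand leads in coding sequence (39.3% against 15.7% for the coding strand) and the coding strand in the other features.

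Simple tandem repeats were a smaller part of the map, and were among its most enriched regions. Within the central window, an exact repeat of units of up to 12 bases and at least 24 bp long was found in 158 regions (4.41%, 3.76 to 5.13), against 0.664% of the tiles. Their median fold enrichment was 5.18, against 4.56 in the regions without one. By unit, and counting rotations and complements as the same, 30 regions held AG, 25 held the telomere-like unit AAACCCT, 24 held A, 16 held AC and 13 held AAC. The AC repeats had the highest median fold enrichment of these, at 6.88. All 16 lay in the arms, which make up 82.2% of the genome. Motif counts on both strands of the central window gave the same picture. CCCTAAACCCTAAA was found in 64 regions (1.79%) and in 0.0865% of tiles, CACACACACACA in 55 (1.53%) and 0.135%, CTCTCTCTCTCT in 93 (2.59%) and 0.46%, and TTTTTTTTTTTT in 239 (6.67%) and 2.03%. TATATATATATA was found in 9 regions (0.251%, 0.115 to 0.476) and in 0.7% of tiles. Neither the TA nor the CA repeat has a di-pyrimidine on either strand, and the former was rarer and the latter more frequent than in the tiles.

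TE families differed widely. Of 320 families in the annotation, 125 held a region and 12 held at least 10. VANDAL17, a family of MuDR-type DNA transposons, had 47 regions and the highest density of those 12, at 423 per Mb (311 to 563), against 25.3 for all TE. Of these 47 regions, 37 also lay within a PCG, while 96 of its 178 elements did, and 45 were strand-biased. In 32 of the 36 strand-biased ones in genes with a known strand, the template strand of the gene was the pyrimidine-rich one. Since these elements overlap gene annotation, the TE and gene classes cannot be told apart there. ATREP18 had 80 regions and 279 per Mb (221 to 347). Of its 391 elements 379 were pericentromeric, and so were 79 of its regions. The 80 regions had a median fold enrichment of 5.90 (5.31 to 6.35). With overlapping regions joined these were 58 loci, while the density and its interval count overlapping regions separately. None of the 80 was strand-biased, and 57 held 2 adjacent telomere-like units. ATREP18 elements with such units were overlapped by a region in 41 of 220 cases (18.6%, 13.7 to 24.4), and those without in 19 of 171 (11.1%, 6.82 to 16.8), and the former were longer (median 1016 against 160 bp).

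**Figure D5:**
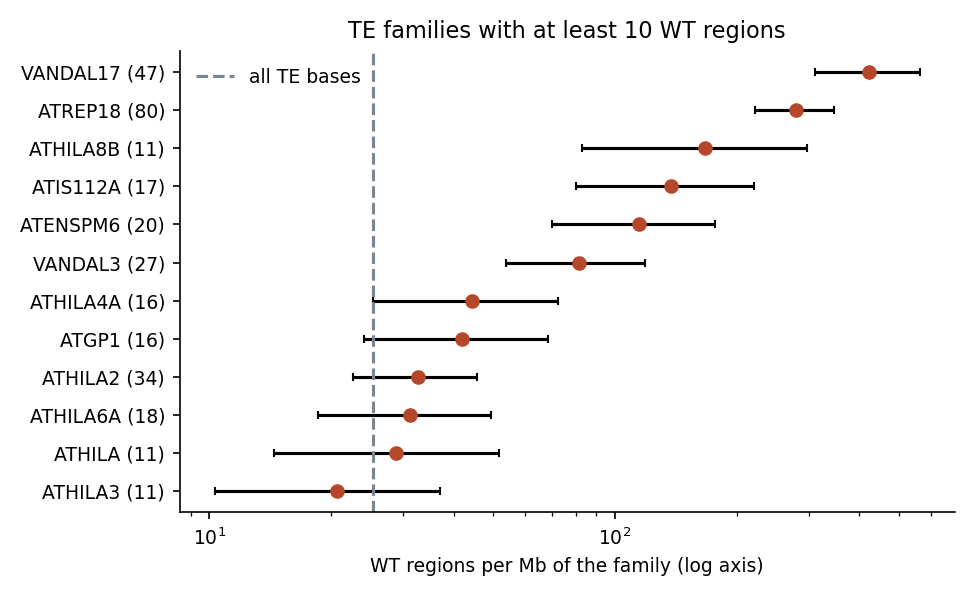
WT regions per Mb of TE family (log axis) for the 12 families with at least 10 regions, with 95% Poisson intervals, the number of regions in brackets and the density over all TE bases (25.3 per Mb) as a dashed line. VANDAL17 and ATREP18 stand highest, at 423 and 279 regions per Mb. Overlapping regions are counted separately, and the 80 ATREP18 regions were 58 loci.

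By the groups of family names, SINE elements had 57.5 regions per Mb from only 5 regions (18.7 to 134.2), ATENSPM (CACTA-type DNA transposons) had 55.7 regions per Mb (43.0 to 71.0) and VANDAL with ATMU 49.0 (40.8 to 58.3). The Gypsy-type ATHILA retrotransposons had 28.7 (24.0 to 34.1), with 114 of 131 regions in the pericentromere. HELITRON had 9.18 (5.82 to 13.8), ARNOLD with BRODYAGA 7.54 (3.26 to 14.9) and LINE elements 6.40 (2.76 to 12.6), all below the density of all TE. No region was in SADHU or in ROMANIAT and ENDOVIR elements, which are few.

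Some of the regions lay close to each other. Neighbours were a median of 21627 bp apart, and 591 regions (16.5%, 15.3 to 17.7) lay in 253 clusters joined over gaps of up to 1000 bp. The share was 35.6% with gaps of up to 5000 bp and 12.7% with 500 bp. A total of 205 regions overlapped another region, and the list does not say whether these came from the different antibodies. They had a median fold enrichment of 5.57 (5.38 to 5.9999) against 4.55 (4.54 to 4.59) in the others. The overlapping regions were pericentromeric in 46.3% (39.4 to 53.4) against 18.5% of cases, and had a tandem repeat in 16.6% (11.8 to 22.4) against 3.67%. In the 99 overlapping pairs, the higher fold enrichment was a median of 1.27 times the lower.

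The largest cluster had 12 regions over 8851 bp on chromosome 2 (chr2:3618796-3627646), with low fold enrichments from 2.86 to 4.94. Its sequence matched itself at a distance of 178 bp in 75.4% of positions, a distance close to the unit length of the centromeric satellite of Arabidopsis. The same distance was found in the cluster of 7 regions at chr5:11730321-11736144, with 74.9% of positions matching. Across the map, 46 regions lay in 1-kb windows that matched themselves best at 178 bp with at least 70% identity, all of them pericentromeric, with a median fold enrichment of 3.73. Counting distances within a few bp of this, it was 47 regions (1.31%, 0.965 to 1.74), against 0.0942% of 1-kb genome tiles. The other cluster of 7 regions lay in ATREP18 elements at chr1:15198266-15202174 (4.25 to 7.56). A further 6 clusters had 6 regions each, and 4 of these held ATREP18 elements, among them those at chr1:15135723-15138179 (4.13 to 9.98) and chr1:15100146-15103892 (5.52 to 9.36). The others were the cluster in AT1G76780 at chr1:28816930-28822046 (4.37 to 8.93), in the arm and with VANDAL17 elements, and that at chr4:3950871-3955521 (3.75 to 5.9999), which matched itself at 178 bp in 86.9% of positions. Among TEs, 3 had 4 regions each, the ATREP18 elements AT2TE15385 and AT1TE50890 and the HELITRON3 element AT3TE51195. With overlapping regions joined into loci, these were 1, 3 and 4 loci. Another 13 had 3 regions, of which 9 were ATREP18 elements, among them AT1TE50955 and AT1TE49665 with 2 loci each.

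Of 27206 PCG, 2238 were overlapped by a region, or 8.23%, and 157 of them by more than 1. The share depended on length, from 1.68% in the shortest to 14.7% in the longest of 10 groups by length. Only 3 genes had more than 3 regions, and 8 genes had 3, among them the phosphatase gene PP2A-3, the extensin-like gene AT1G23720 and AT3G28770. Overlapping regions were counted separately here, and joining them left 2 loci in PP2A-3. AT2G08986, which is uncharacterized, had 11 regions at 8 loci, from 2.86 to 4.94. It is part of the satellite-like cluster on chromosome 2, and its neighbour AT2G07981 had 3 regions. The uncharacterized gene AT1G40104 had 4 regions, from 3.74 to 4.18. AT2G22795 had 3 regions, from 3.94 to 5.10. AT1G76780, annotated as a member of the HSP20-like chaperone superfamily, had 6 regions at 5 loci, from 4.37 to 8.93. They lay in and beside VANDAL17 annotations, and all 6 were strand-biased in the same direction.

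Gene families differed in the share of genes with a region. Pentatricopeptide repeat genes, which act on organelle RNA, had a region in 46 of 260 (17.7%, 13.3 to 22.9), and 85.3 regions per Mb against 40.1 for all PCG. Among genes of middle length their share was 2.23 times that of all genes. Transcription factors had a region in 34 of 342 (9.94%, 6.98 to 13.6) and protein kinases in 80 of 837 (9.56%, 7.65 to 11.8). Both intervals hold the share of all PCG, 8.23%. Cytochrome P450 genes had one in 5 of 218 (2.29%, 0.749 to 5.27), F-box genes in 20 of 628 (3.18%, 1.96 to 4.88) and disease resistance genes in 10 of 188 (5.32%, 2.58 to 9.56), although the latter are long (median 3500 bp). F-box genes are short (median 1323 bp), and their interval holds the share of 4.61% in all PCG of 1006 to 1346 bp. None of the 631 tRNA genes was overlapped, and 3 of 177 miRNA genes were, beside 1.68% of the PCG in the shortest length group (75 to 625 bp). These RNA genes were not matched to PCG by length.

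Among genes of photolesion repair and UV response, 5 of 23 held a region, beside 8.23% of all PCG. PHR1 (UVR2), the CPD photolyase, had a region in an intron with a fold enrichment of 6.33. REV3, a translesion polymerase subunit, had an intron region of 5.84, and POLH, the translesion polymerase eta, a coding-sequence region of 5.63. CUL4, the scaffold of the ubiquitin ligase that works with DDB2, had 2 regions, of 5.30 in an intron and 4.38 at its edge. DET1, a partner of that complex, had a coding-sequence region of 3.18. Among genes of DNA methylation and small RNA pathways, 7 of 29 held a region. The Argonaute genes AGO9, AGO1, AGO4 and AGO6 had intron regions with fold enrichments of 6.89, 4.95, 3.96 and 3.39. RDR2, an RNA-dependent RNA polymerase, the histone methyltransferase gene SUVH6 and the Dicer gene DCL1 had coding-sequence regions of 5.36, 4.34 and 3.79. These lists hold long genes, and were not compared further.

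The windows of AGO9 (chr5:7192780-7192971, plus strand, the coding strand) and of DCL1 (chr1:24048-24239, minus strand, the template strand) are an intron and a coding-sequence example. Of the other listed intron regions, AGO1 and REV3 were also biased to the coding strand. Those of AGO4, AGO6, CUL4 and PHR1 had a strand difference below 0.2. In coding sequence POLH and SUVH6 were biased to the template strand like DCL1, DET1 to the coding strand, and RDR2 was below 0.2. Capitals mark runs of at least 6 pyrimidines.
AGO9: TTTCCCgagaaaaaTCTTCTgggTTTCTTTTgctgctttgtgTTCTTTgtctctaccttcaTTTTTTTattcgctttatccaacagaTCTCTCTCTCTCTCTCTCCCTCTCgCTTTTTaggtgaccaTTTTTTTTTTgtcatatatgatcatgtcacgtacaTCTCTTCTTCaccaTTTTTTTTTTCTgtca
DCL1: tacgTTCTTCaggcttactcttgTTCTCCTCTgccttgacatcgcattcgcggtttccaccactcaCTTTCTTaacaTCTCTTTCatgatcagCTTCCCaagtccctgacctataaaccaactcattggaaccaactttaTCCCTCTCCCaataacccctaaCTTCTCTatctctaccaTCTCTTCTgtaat

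The region with the highest fold enrichment, 14.8, spanned 934 bp in the ATENSPM9 element AT2TE22075 (chr2:5455077-5456010). The next were the CA repeat in AT3G23460 printed above, with a second, overlapping region of 12.7, and an intergenic region 685 bp from AT3G48344 (chr3:17900902-17901904). After them came the CT repeats in AT4TE19110 and in the LIMPET1 element AT3TE52120, at 14.3 and 13.5, where 89.1% and 87.5% of the central bases were pyrimidines on the richer strand. An intergenic region of 13.2 lay 487 bp from AT1G49940 (chr1:18491315-18492017) and held, over its whole length, a repeat of 51 bp of the unit ACAT, most of it outside the central window. The top 10 were completed by ATREP18 elements (AT1TE50365 at 12.5 and AT2TE11275 at 12.5) and by the VANDAL17 element in AT3G15120. In PCG the next values were 11.1 in the 3′ UTR of AT5G47540, an Mo25 family gene with a CA repeat, 10.7 in AT3G28770, whose region of 2444 bp was the longest of the map, and 10.5 in an intron of PI-4KBETA2, a phosphatidylinositol kinase gene. The remaining intergenic regions named by rank had 11.8 near AT4G18425, 11.7 at 143 bp from AT3G27510, and 10.6 at chr2:5099802-5100180. The last was intergenic by its midpoint, but overlapped AT2TE20955 (ATREP18), AT2TE20960 (ATLANTYS1) and AT2G12510, and held an AG repeat of 98 bp.

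Few regions coincided with DNA methylation changes. The WT list of differentially methylated regions (DMR) between time point 0 and 24h comes from bisulfite sequencing, with 1 library per time point, and holds 1998 DMRs. At least 50% of the photolesion region was covered by a DMR in 17 regions (0.474%, 0.276 to 0.758), and 0.482% of 200-bp genome tiles were covered to the same extent. With an overlap of 1 bp it was 36 regions (1.004%, 0.704 to 1.39) against 0.717% of tiles, and in TE 3.54% (2.23 to 5.31) against 2.23%. Most regions were longer than the tiles, with a median of 230 bp, so the shares at 1 bp are not matched for length. The ratio of the shares was 0.984 at 50% overlap and 1.40 at 1 bp, and at 50% overlap 1.31 for regions with a fold enrichment of at least 5 and 1.07 for CHH changes of at least 15 points. The 17 regions lay in 15 DMRs, all in the CHH context, 11 with a gain and 4 with a loss of methylation, and 11 of the regions were pericentromeric. The whole WT list held 1108 DMRs with a gain and 890 with a loss, and the paper places them predominantly in the CHH context. Of the 2870 tiles covered to at least 50% by a DMR, 1384 were pericentromeric. The most enriched of the 17 regions, at chr2:5099802-5100180, was overlapped by the region of 8.34 at chr2:5099873-5100189, and both lay in a DMR where CHH methylation was 19.9% at time point 0 and 4.76% at 24h. The ATHILA element AT2TE17420 (8.85) went from 0.392% to 12.03%. A pair of overlapping regions in the ATREP18 element AT1TE49425 (7.42 and 6.42) lay in a DMR with 9.26% at time point 0 and 24.0% at 24h. These levels had no replicates, came from a less deep library at time point 0, and were not tested.

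The lists of the mutants were made against the same WT input and have other minimum lengths, so they are given side by side without a comparison. WT had 3585 regions, *ddb2* 1166, *dcl4* 1260, *uvr3 phrI* 999 and *ago1* 259. The share in PCG was 57.7% in WT, 48.6% in *ddb2*, 39.6% in *dcl4*, 33.2% in *uvr3 phrI* and 35.5% in *ago1*, and the share with a strand difference of at least 0.2 was 53.5%, 44.4%, 46.0%, 46.8% and 38.6%. At the CT repeat of AT4TE19110 the fold enrichment was 14.3 in WT, 22.2 in *ddb2*, 17.4 in *dcl4*, 23.9 in *uvr3 phrI* and 18.6 in *ago1*. At the most enriched WT region, in AT2TE22075, it was 14.8, 5.71, 6.75, 10.2 and 5.38 in the same order. The direction thus differed between these loci.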

How the data were processed

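The analysis started from the authors' lists. The submitters' processing notes name Bowtie 1.1.2, MACS2 2.1 and TAIR10. The deposited fold enrichments are ratios of IP to WT input signal, from the peak caller. DNA was sonicated and denatured before the IP. The deposited methylation levels of WT DMRs are scores, fractions of methylated calls, and are given as percentages here. Gene and TE coordinates were those the authors list in a small RNA table. Its abundance columns, and those of the other such tables (60 columns in 6 tables), match no sample by name and were not used.

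Sequence and gene models came from TAIR10.1 (RefSeq). Of 27206 PCG of the authors' annotation, 26719 were found by name and all of these overlapped the gene of that name. The feature of a region was read at its midpoint on the model with the longest coding sequence. Per chromosome, gene coverage was averaged over 1 Mb in bins of 100 kb, and the longest stretch of bins below 50% of the median coverage was called the pericentromere. Regions of a TE family were assigned by the element with the largest overlap at the midpoint. The genome background was all non-overlapping tiles of 192 bp without undetermined bases. Functions were tested on simulated data. Python 3.11.15, numpy 2.4.6, pandas 2.3.3 and scipy 1.17.1 were used.

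Named loci were the 10 most enriched regions, the 5 most enriched in each class, the 5 PCG, TEs and clusters with most regions, the 5 most enriched regions with a DMR and all genes of the lists with a region. Ties were broken by the shorter length for PCG and TEs and by the higher fold enrichment for clusters, and the genes and clusters named from a tie beyond these were picked after their values were seen. The members and lists were chosen with earlier results of these data known. The measures of strand difference, repeats, motifs and satellite length, the single TE families and the printed sequences were chosen after seeing the data. Alternatives covered the class, zone, overlap and fold limits.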

Additional observations from a re-analysis of the deposited data

How the results depend on the processing

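Of 54 alternatives for 18 results, 33 left the value inside its 95% interval and 21 moved it. With genes before TEs, the ratio of region share to genome share was 1.20 in PCG and 0.739 in TE. With a fold enrichment of at least 5 it was 1.09 in PCG, 1.06 in TE (from below to above 1) and 1.28 in the pericentromere, ATREP18 held 20.3% of TE regions and the median strand difference was 0.24. The pericentromeric ratio was 1.03 without ATREP18 and 0.987 with regions joined over 1000 bp. Means in place of medians gave fold enrichments of 4.74 in PCG, 5.21 in TE and 4.85 in intergenic regions. In 5 parts of the gene body the fullest part held 1.65 times an even share, and the 5′ UTR held 7.29% of genic regions lying wholly inside 1 gene. The share in clusters was 12.7% with gaps of 500 bp, 35.6% with 5000 bp and 11.8% with overlapping regions merged. Di-pyrimidines exceeded the genome by 0.593 points on the plus strand alone. Tandem repeats were 3.81 times as frequent as in tiles from 18 bp, 13.01 times from 36 bp and 5.52 times without overlapping regions. The cause of these shifts was not tested. Alternatives on strand difference, repeats, ATREP18, joined regions and gene length were chosen after seeing the data. No paired analysis was possible because each condition has 1 library. The list gives neither the antibody nor the reads of a region, so the depth behind each region cannot be computed. The paper's statistics show few mapped reads in the WT IP libraries. Without an unirradiated IP, lesion density and antibody or mapping preferences cannot be told apart.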
